A study of Mus musculus with 3 samples.

Results

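Genes of the Toll-like and NOD-like receptor pathways were described in 3 RNA sequencing libraries of group 2 innate lymphoid cells (ILC2s), tissue lymphocytes that make type 2 cytokines without rearranged antigen receptors. The members were chosen by name, with earlier results of these data known. The rule took as members mouse genes whose symbol begins with Tlr, Nlrp, Naip or Irak and a digit, together with 15 named sensors, adaptors and kinases. They came to 57 of the 27179 gene IDs in the deposited count table, of which 54 are protein-coding and 3 are pseudogenes (Nlrp1c-ps, Nlrp4d and Nlrp5-ps). Irak1bp1, whose product binds IRAK1, entered by its name. All 3 libraries belong to 1 group, wild-type C57BL/6 mice, with 1 library per mouse according to the series' design text, so the data hold no contrast between conditions. The sort took cells that stained for KLRG1, CD127, CD90.2 and CD45. It gated out CD11b and CD11c, which mark myeloid cells, as well as B220, NK1.1, CD3, CD5 and CD8. The sources used here give no tissue, age, sex or treatment. The libraries are called mouse 1, 2 and 3 after their sample numbers.

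Toll-like receptors (TLRs) are membrane receptors for microbial lipids, proteins and nucleic acids. Most of them signal through the adaptor MyD88 and the IRAK kinases, a module that the receptors for IL-1, IL-18 and IL-33 also use. NOD-like receptors and related sensors act in the cytosol: NOD1 and NOD2 signal through RIPK2, the NAIP proteins and NLRP3 build inflammasomes that activate caspase-1, and RIG-I and MDA5 signal through MAVS. Innate immune cells such as macrophages are the classical carriers of these receptors, whereas ILC2s are known chiefly for their response to IL-33, IL-25 and TSLP.

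The libraries held 17819551 to 26374248 counts. Levels are CPM, counts per 1000000 counts of a library whose size was adjusted by the TMM method (trimmed mean of M values). For comparisons between genes RPKM is used, which is CPM per kb of summed exon. The 3 genes named from each list of further pathway genes are those with the highest mean CPM, which also depends on gene length, and their RPKM is given where that changes the order. A gene was called detected at 1 CPM or more in each of the 3 mice. A count of 0 allows up to 3 counts, which is 0.132, 0.171 and 0.115 CPM in mice 1, 2 and 3, and this limit covers counting error only. All 12 ILC2 markers were detected, while 3 of 13 macrophage, monocyte and dendritic cell markers were (Lyz2, Ccr2 and Xcr1) and 0 of 5 neutrophil markers. Detected too were 6 of 9 B and plasma cell markers, 3 of 5 mast cell and granulocyte markers, 2 of 5 of stroma and endothelium, 2 of 6 T cell markers, 2 of 6 NK cell and ILC1 markers and 1 of 7 of gut epithelium. The sort itself selected for KLRG1 and CD127, encoded by Klrg1 and Il7r, and gated out several proteins of the other lists. Marker lists were also chosen with earlier results of these data known, so these counts are no independent measure of purity. Jchain, a plasma cell gene, had 5527, 13790 and 18473 CPM in mice 1, 2 and 3, while no mouse had a count of Ms4a1 or Pax5, which mark B cells. Adgre1, Flt3 and Clec9a had 0 counts in every mouse. Immunoglobulin transcripts made up 1.04%, 3.89% and 7.81% of counts in mice 1, 2 and 3.

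Most adaptor and kinase genes of these pathways were detected and most receptor genes were not. Of the 57 members 14 were detected (24.6%), against a background of 31.1% of all gene IDs. Among protein-coding genes the share was 25.9% of members and 38.0% of all genes. A further 16 members had counts but did not reach 1 CPM in each mouse, and 27 had 0 counts in every mouse. Of the protein-coding members 24 had no count (44.4%), against 38.2% of all protein-coding genes. The median over protein-coding members was 0.161 CPM, against 0.471 CPM over all protein-coding genes. A mean of 10 CPM was reached by 12 members, 22.2% of the protein-coding ones, against 28.3% of all protein-coding genes. In bulk libraries a low level from fewer expressing cells and from less RNA per cell cannot be told apart. By role, 6 of the 45 receptors and sensors were detected and 27 had no count, whereas 8 of the 12 adaptor and kinase genes were detected and each of the 12 had a count in some mouse.

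**Figure D1:**
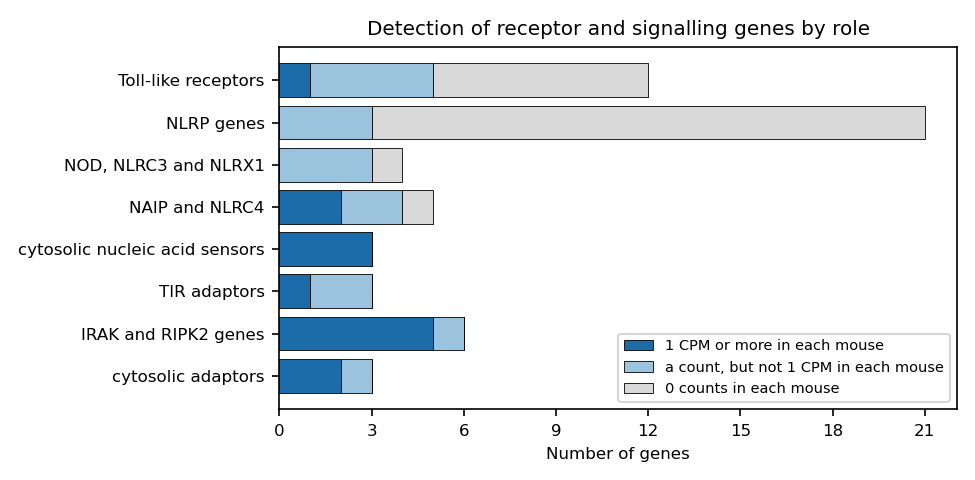
Number of member genes by role (horizontal axis), divided into genes at 1 CPM or more in each of the 3 mice (dark blue), genes with a count that did not reach this level (light blue) and genes with 0 counts in each mouse (grey). All 3 cytosolic nucleic acid sensors and 5 of the 6 IRAK and RIPK2 genes are dark blue, against 1 of 12 Toll-like receptors and 0 of 21 NLRP genes.

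Among the 12 Toll-like receptors, Tlr6 was the one detected in every mouse, and it was low. TLR6 pairs with TLR2 to bind diacylated lipopeptides. Tlr6 had 1.28, 1.76 and 3.49 CPM in mice 1, 2 and 3, from 29, 31 and 91 counts. Tlr1, the partner of TLR2 for triacylated lipopeptides, had 3.93, 0.284 and 3.57 CPM, so that mouse 2 stood far below the other mice. Tlr2 itself had 0, 0.0569 and 1.27 CPM, from 0, 1 and 33 counts. The common partner was thus at or under the counting floor in mice 1 and 2. Tlr1 and Tlr6 lie side by side on chromosome 5 (64924680 to 64933600 and 64953092 to 64970942, mm10). Their transcripts share sequence: 15.3% of the 50-base windows of the Tlr1 transcript also occur in Tlr6, and 12.5% of those of Tlr6 occur in Tlr1. Reads from such stretches could have been counted for either gene or discarded.

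Tlr12 had 12, 0 and 1 counts in mice 1, 2 and 3, so that it passed the floor of 3 counts in mouse 1 alone, and Tlr7 stayed under it with 0, 2 and 0 counts. The remaining 7 receptors had 0 counts in all 3 mice. They were Tlr4, the lipopolysaccharide receptor, Tlr5, the flagellin receptor, Tlr11, and Tlr3, Tlr8, Tlr9 and Tlr13 of the endosomal nucleic acid receptors. Partners of these receptors were nevertheless measured. Ly96, which encodes the TLR4 partner MD-2, had 33.3, 27.1 and 36.2 CPM in mice 1, 2 and 3. Cd14, which hands lipopolysaccharide to TLR4 and MD-2, had 7.68, 8.64 and 3.45 CPM. Unc93b1, which carries the endosomal TLRs to their compartment, had 8.21, 5.12 and 12.3 CPM. Each of these partners had over 1 CPM in every mouse, while Tlr3, Tlr4, Tlr7, Tlr8, Tlr9 and Tlr13 had at most 2 counts in any mouse. Cd180, a TLR4-like receptor, had 0 counts, and its partner Ly86 had 8.98 ± 7.81 CPM (SD, n = 3).

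**Figure D2:**
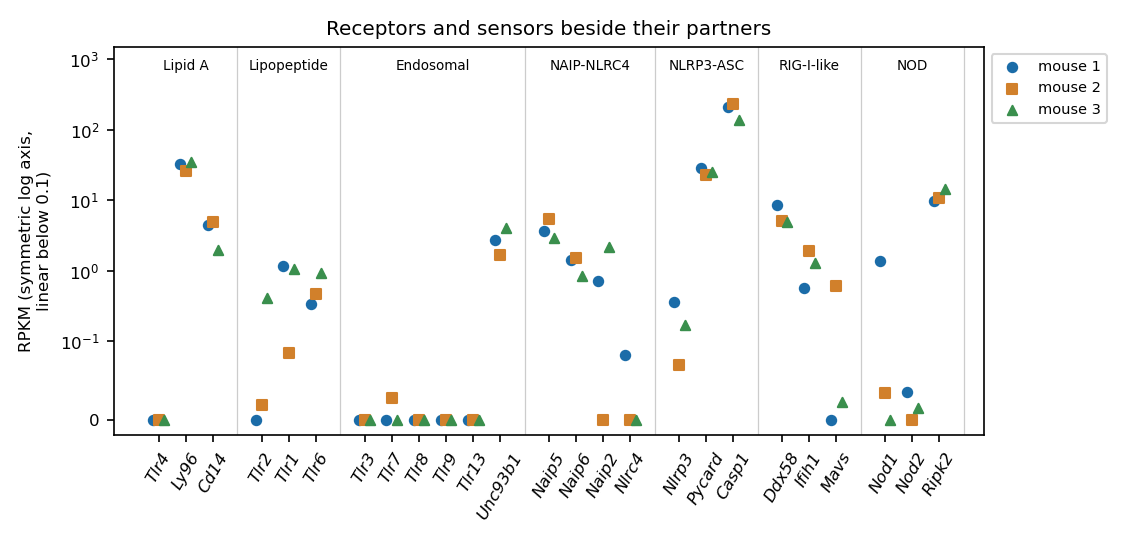
Levels in RPKM (vertical axis, symmetric log scale that is linear below 0.1) of receptors and sensors and of genes that act with them, 1 point per mouse. Ly96 lies near 31.5 RPKM beside Tlr4 at 0, Pycard and Casp1 lie far above Nlrp3, and Naip5 and Naip6 lie above Nlrc4, which has counts in mouse 1 only.

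The adaptor of most TLRs and of the IL-1 receptor family was clearly present. Myd88 (chromosome 9, 119335934 to 119340018) had 26.8, 42.0 and 56.8 CPM in mice 1, 2 and 3, or 41.9 ± 15.0 (SD, n = 3). Its highest value came from mouse 3, which also had the highest immunoglobulin share, and the part of that share in the result was not tested. Some 11.3% of its exon sequence overlaps Acaa1a on the opposite strand, and the library kit does not mark strand. Acaa1a was at 5.56 to 10.6 CPM without TMM scaling. The other 2 adaptors were hardly measured. Ticam1 (TRIF), the adaptor of TLR3 and TLR4, had 0.971, 0 and 1.15 CPM, and Tirap, which bridges MyD88 to TLR2 and TLR4, had 1.10, 0.171 and 0.499 CPM. Myd88 exceeded Ticam1 in 3 of 3 mice on the RPKM scale (10.4, 16.3 and 22.0 against 0.324, 0 and 0.385). No fold is given because Ticam1 had 0 counts in mouse 2. Il1rl1, the IL-33 receptor gene whose product signals through MyD88, had 196, 95.8 and 117 CPM.

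Irak3 had the highest CPM of the members, and the highest RPKM under the GENCODE exon lengths. It encodes IRAK-M, which restrains signalling from TLRs and IL-1 family receptors. Irak3 (chromosome 10, 120141648 to 120202130) had 139, 95.8 and 178 CPM in mice 1, 2 and 3. At 37.4 ± 11.1 RPKM (SD, n = 3) it ranked at place 1460 of the 8326 detected genes with an exon length. The other IRAK family genes had lower RPKM, 7.44 ± 1.12 for Irak2, 4.80 ± 0.789 for Irak1 and 2.09 ± 0.696 for Irak4. By mouse, Irak2 had 29.2, 30.8 and 38.5 CPM. Irak1 had 18.5, 25.8 and 23.7 CPM, and Irak4, the kinase that starts the cascade, had 8.82, 8.19 and 14.5 CPM. Irak4 minus Irak3 was -3.86 ± 0.22 on the log2(RPKM + 0.5) scale (SD, n = 3), with Irak4 lower in 3 of 3 mice. Irak4 minus Irak1 was -1.05 ± 0.40, also lower in 3 of 3 mice. Each of these had an exact two-sided sign-flip permutation p of 0.25 (0.286 adjusted over 8 gene pairs). With 3 libraries this p of 0.25 is the smallest possible, so no pair can pass 0.05. Irak1bp1 had 0 counts in mouse 1 and 5.52 and 6.48 CPM in mice 2 and 3. Exons of Irak3 and Irak4 overlap opposite-strand genes, Tmbim4 over 5.22% and Twf1 over 7.87% of their length. Tmbim4 was abundant at 694 to 877 CPM without TMM scaling, and its part in the Irak3 counts was not tested. Twf1 was at 52.1, 55.8 and 44.1 CPM in mice 1, 2 and 3 without TMM scaling, above Irak4 in each mouse. Its part in the Irak4 counts, and so in both differences from Irak4, was not tested either.

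**Figure D3:**
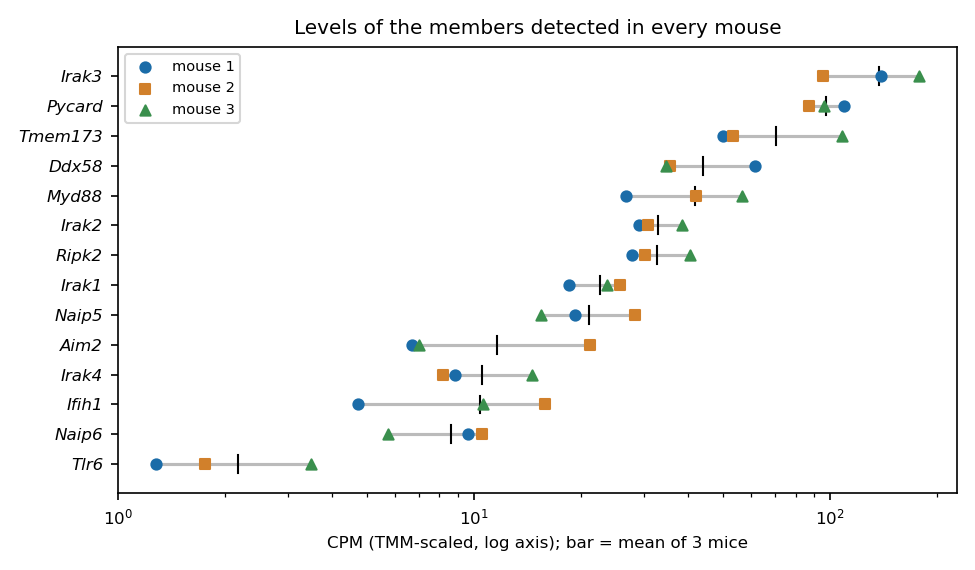
CPM, not divided by gene length, on a log axis of the 14 members detected in every mouse, 1 point per mouse, with the mean as a black bar and the range as a grey line. Irak3, Pycard and Tmem173 lie at the top with means of 137, 97.7 and 70.4 CPM, and Tlr6 lies at the bottom at 2.18 CPM.

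Promoters of the detected members were read for motifs of IRF, NF-kappaB, AP-1, cyclic AMP response and E-box binding factors, to show what stands in front of these genes. Of the 14 detected members 12 were matched to a RefSeq promoter of GRCm38.p6 (not Ripk2 and Tmem173), and the 250 bases before each start were searched on both strands. The repeat bound by interferon regulatory factors (IRFs), GAAA followed by any 2 bases and GAAA again, was found for 2 of the 12, Myd88 and Tlr6, and it stands in 2.98% of all 32851 promoters. The NF-kappaB consensus was found for 1 of the 12, Naip5, and stands in 3.90% of all promoters. The AP-1 motif TGANTCA (6.75% of all promoters), the cyclic AMP element TGACGTCA (1.55%) and the E-box CACGTG (6.02%) were found for 0 of the 12. A gene was counted if any of its listed starts had the motif, whereas the percentages are shares of single promoters. Tlr6 has 2 listed starts, and its repeat lies before 1 of them as 2 overlapping copies, 116 and 110 bases upstream. The repeat of Myd88 lies 40 bases upstream. A match is a description of letters and shows no binding, and no match says nothing about a factor. The 2 windows with the repeat, in capitals, are on the minus strand of chr9:119340019-119340268 and chr5:64959167-64959416.
Myd88: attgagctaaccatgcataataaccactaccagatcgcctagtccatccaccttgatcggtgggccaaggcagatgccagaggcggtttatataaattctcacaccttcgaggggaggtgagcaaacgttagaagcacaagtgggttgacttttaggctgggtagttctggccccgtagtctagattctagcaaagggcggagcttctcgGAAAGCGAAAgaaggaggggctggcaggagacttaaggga
Tlr6: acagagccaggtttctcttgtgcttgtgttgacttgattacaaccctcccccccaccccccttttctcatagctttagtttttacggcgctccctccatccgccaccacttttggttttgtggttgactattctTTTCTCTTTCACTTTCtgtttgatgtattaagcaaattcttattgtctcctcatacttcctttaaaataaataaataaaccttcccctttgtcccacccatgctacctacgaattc

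Naip5 and Naip6 were the NOD-like receptor genes among the members that were detected in every mouse. In mice NAIP5 and NAIP6 bind bacterial flagellin, NAIP1 and NAIP2 bind parts of type III secretion systems, and all of them need NLRC4 to activate caspase-1. Naip5 had 19.3, 28.3 and 15.4 CPM in mice 1, 2 and 3, and Naip6 had 9.62, 10.5 and 5.75 CPM. Naip2 was uneven at 3.53, 0 and 10.6 CPM, and Naip1 had 0 counts in each mouse. Nlrc4 had 9, 0 and 0 counts. The flagellin receptor genes were thus detected in 3 of 3 mice, while their common partner was above the floor of 3 counts in mouse 1 alone.

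The Naip genes form a block of near copies on chromosome 13 (100144063 to 100452864, mm10), which limits how far their counts can be told apart. Coding sequences of Naip5 and Naip6 are 97.0% identical over 4209 aligned bases, whereas Naip2 is 90.0% identical to Naip5. In the Naip5 transcript 36.9% of the 50-base windows occur in a transcript of another gene, and 22.2% occur in Naip6. For Naip6, Naip2 and Naip1 the shares found in any other gene are 21.5%, 19.4% and 32.5%. The sources used here do not say how reads with several matches were counted, so the Naip5 and Naip6 values are uncertain. The first 60 coding bases are shown because several copies coincide in them. Naip1, Naip5 and Naip6 are identical there, and Naip2 differs from Naip5 at 21 bases, given in capitals.
Naip1: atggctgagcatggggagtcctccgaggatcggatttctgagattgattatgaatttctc
Naip2: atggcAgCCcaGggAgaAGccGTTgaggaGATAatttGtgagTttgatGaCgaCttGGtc
Naip5: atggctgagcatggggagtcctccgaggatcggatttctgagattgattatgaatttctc
Naip6: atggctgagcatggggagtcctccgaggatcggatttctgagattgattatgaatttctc
The stretch in which Naip5 and Naip6 differ most, coding bases 41 to 100, has 10 unlike bases of 60, again in capitals, and reads that cover it can tell the genes apart.
Naip5 bases 41 to 100: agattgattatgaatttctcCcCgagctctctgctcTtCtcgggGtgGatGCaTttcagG
Naip6 bases 41 to 100: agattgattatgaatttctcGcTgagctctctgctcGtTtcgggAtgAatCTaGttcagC

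None of the 21 NLRP genes was detected at 1 CPM in each mouse, and 18 had 0 counts in all 3. Nlrp3, whose product responds to potassium loss and membrane damage, had 1.46, 0.284 and 0.690 CPM in mice 1, 2 and 3, from 33, 5 and 18 counts. Nlrp1a had 28 counts in mouse 3 and 0 in the others, and Nlrp9b had 4, 6 and 3 counts. Nlrp6 and Nlrp12, and also Nlrp1b, Nlrp2, Nlrp10 and Nlrp14, had none. Neither did Nlrp4a to Nlrp4g, Nlrp5, Nlrp9a, Nlrp9c, Nlrp1c-ps or Nlrp5-ps. Of the 21 genes 15 lie on chromosome 7. Several of these genes, such as Nlrp5, are known from oocytes.

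Several parts downstream of an inflammasome sensor were abundant. Pycard, which encodes the adaptor ASC, had 109, 87.5 and 96.5 CPM in mice 1, 2 and 3, and its coefficient of variation of 11.1% was the smallest of the 14 detected members. Pycard minus Nlrp3 was 5.24 ± 0.14 on the log2(RPKM + 0.5) scale, higher in 3 of 3 mice (exact sign-flip permutation p = 0.25, the smallest possible). Nlrp3 lay under the pseudocount of 0.5 at 0.359, 0.0701 and 0.170 RPKM, so the pseudocount sets the size and the SD of this difference, which was 6.54 at a pseudocount of 0.1 and 4.48 at 1. The plain RPKM ratios were 80.0, 329 and 149 in mice 1, 2 and 3. The exon length used for Pycard, 3800 bases in GENCODE, exceeds the 2495 bases that its whole gene spans in RefSeq, and 12.8% of it overlaps an opposite-strand gene. Per kb of that RefSeq span Pycard averaged 39.2 CPM, which is above the 37.4 RPKM of Irak3, so the order of these 2 genes depends on the length used. Casp1 reached 292 ± 75.3 CPM, Casp8 192 ± 15.6 and Casp4 192 ± 68.8. These had the highest CPM of 10 further inflammasome genes, not all of them downstream parts, of which 8 were detected. By RPKM, Ninj1, needed for membrane rupture in dying cells, came second at 98.7 ± 43.2, after Casp1 (195 ± 50.3) and above Casp8 (66.5 ± 5.39) and Casp4 (51.7 ± 18.5). Il1b was among the detected genes at 22.6, 47.5 and 23.8 CPM, whereas Il18 had 0.0639 ± 0.111 CPM and Mefv had 0 counts. The myeloid marker Lyz2 was likewise highest in mouse 2, at 21.0, 36.7 and 20.8 CPM in mice 1, 2 and 3. Of the other detected markers of that list, Ccr2 was highest in mouse 2 and Xcr1 in mouse 3. Which cells gave the Il1b counts was not tested.

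The NOD branch showed its kinase without steady receptors. Ripk2 had 27.8, 30.1 and 40.4 CPM in mice 1, 2 and 3. Nod1, the sensor of meso-diaminopimelic acid peptides, had 158, 3 and 0 counts, or 6.97, 0.171 and 0 CPM. It was thus present in mouse 1 and at or under the floor in mice 2 and 3. Nod2, the muramyl dipeptide sensor, had 4, 0 and 2 counts. Nod1 exceeded Nod2 in 2 of 3 mice, but in mice 2 and 3 neither gene was above the floor, and no fold is given. Nlrc3, an inhibitor of several of these pathways in mice, had 74, 1 and 69 counts, and the mitochondrial family member Nlrx1 had 0 counts throughout. Of 8 further genes of NOD signalling 7 were detected, with the highest CPM for Birc3 (286 ± 42.6 CPM), Erbin (158 ± 44.4) and Birc2 (124 ± 18.0). By RPKM, Birc2 (27.0) stood above Erbin (19.9). Card9 had 0 counts. Outside the members, the NLR gene Nlrc5 was detected at 22.3 ± 5.24 CPM, or 2.63 RPKM, which is above the 1.26 RPKM of Naip6, and Ciita was not.

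All 3 cytosolic nucleic acid sensors were detected. Ddx58, which encodes the RNA sensor RIG-I, had 61.4, 35.6 and 34.6 CPM in mice 1, 2 and 3. Ifih1, which encodes the long double-stranded RNA sensor MDA5, had 4.72, 15.9 and 10.6 CPM. Ddx58 minus Ifih1 was 1.95 ± 1.01 on the log2(RPKM + 0.5) scale, higher in 3 of 3 mice (exact sign-flip permutation p = 0.25, the smallest possible). Aim2, the DNA sensor of an ASC inflammasome, had 6.71, 21.2 and 7.02 CPM. Aim2 and Ifih1 were both highest in mouse 2, the library with the highest sum of 6 NK cell and ILC1 markers, at 8.47, 243 and 55.0 CPM in mice 1, 2 and 3. Gzma alone gave 229 of the 243 CPM in mouse 2, Ncr1 was highest in mouse 3 (3.57 CPM), and the defining genes Eomes and Tbx21 had 1 count each, in mouse 2. The macrophage, monocyte and dendritic cell sum was also highest in mouse 2, at 64.8, 116 and 94.7 CPM in mice 1, 2 and 3. So were those of mast cells and granulocytes (23.8, 37.0 and 24.9 CPM) and T cells (22.2, 22.8 and 19.2 CPM). The B and plasma cell and neutrophil sums were highest in mouse 3, and the ILC2, gut epithelium and stroma sums in mouse 1. Cells with NK1.1, CD3, CD11b or CD11c were gated out in the sort, and the part of any that remained was not tested.

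Adaptors of cytosolic nucleic acid pathways differed in level. Pycard, which encodes the ASC of the AIM2 inflammasome, had a mean of 97.7 CPM. Tmem173 encodes STING, the DNA pathway adaptor that responds to the ligand made by cGAS. Tmem173 had 49.9, 53.3 and 108 CPM in mice 1, 2 and 3. Mouse 3, the library with the highest immunoglobulin share, stood above the others. Mavs, the adaptor of RIG-I and MDA5, had 0, 36 and 2 counts, or 0, 2.05 and 0.0767 CPM. On the RPKM scale Mavs lay below Tmem173 in 3 of 3 mice. Mavs was thus above the floor in mouse 2 alone, although Ddx58 and Ifih1 were detected in every mouse. Of 10 further genes of cytosolic nucleic acid signalling 7 were detected, with the highest CPM for Tank (385 ± 73.8 CPM), Tbk1 (82.6 ± 19.6) and Zbp1 (78.9 ± 29.6). Per length the last 2 were close, at 21.1 ± 5.01 RPKM for Tbk1 and 22.4 ± 8.38 RPKM for Zbp1. Cgas, which makes the ligand of STING, had 3.37 CPM in mouse 3 and 0 counts in mice 1 and 2.

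Most of the other genes listed for these pathways, which are no members, were detected. Of 63 such genes 47 were detected, against 38.0% of all protein-coding genes. In every mouse 4 had 0 counts (Cd180, Peli3, Card9 and Mefv), against 38.2% of all protein-coding genes. The lists of these genes, here and above, were chosen with earlier results of these data known. The part of that choice in these counts was not tested. In signalling from TLRs and IL-1 receptors 12 of 16 were detected, with Peli1 (149 ± 12.8 CPM), Chuk (102 ± 16.2) and Ube2n (66.9 ± 6.35) highest in CPM. Of 6 inhibitors 5 were detected, with Tnfaip3 (A20) at 835 ± 134 CPM, Cyld at 99.3 ± 24.7 and Tollip at 29.5 ± 14.6. By RPKM, Otulin (14.1 ± 8.22) came second after Tnfaip3 (116 ± 18.5), above Cyld (7.89 ± 1.96) and Tollip (5.82 ± 2.88). Of 11 co-receptor and trafficking genes 7 were detected. The highest CPM was that of the chaperone gene Hsp90b1 (515 ± 130 CPM), then Ly96 (32.2 ± 4.61) and Cnpy3 (16.6 ± 3.93). Hsp90b1 had 395, 499 and 653 CPM in mice 1, 2 and 3, the order of the immunoglobulin share. The part of that share in the result was not tested.

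The spread of the members between mice was set beside that of all genes. Among the 14 detected members the median coefficient of variation was 32.3%, against 28.5% over all 8461 detected genes. In edgeR's quasi-dispersion test, which asks whether a gene varies more than genes of its abundance, 0 of the 14 members were called at an adjusted p of 0.05, against 17 of 9175 genes (0.185%). None of the 14 had an unadjusted p under 0.05 either, limma called 0 of the 14 (17 of 9175 genes), and DESeq2 marked 0 of 30 members as dispersion outliers (52 of 15092 genes). On simulated data the edgeR test recovered 25 of 100 genes raised 8-fold in 1 library, so a gene without a call need not be stable. The lowest unadjusted p was that of Tmem173 (0.0846, adjusted p = 0.976 in edgeR), followed by Irak3 (0.168). The highest value fell in mouse 3 for 7 of the 14 members, in mouse 2 for 5 and in mouse 1 for 2. Over all detected genes these shares were 34.4%, 33.7% and 31.9% for mice 3, 2 and 1.

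Members at or under the floor in some mouse were removed by the low-count filter of that test. Of the 25 members that reached 1 CPM in some mouse, 9 had 3 counts or fewer in another (36.0%). The same held for 15.7% of the protein-coding genes that reached 1 CPM in some mouse. This definition was made after the values were seen, and no test was made of the difference. Without the filter, edgeR called 0 of the 30 members with a count (0 at an unadjusted p under 0.05), against 22 of 15092 genes. The 9 genes were Naip2, Irak1bp1, Nod1, Nlrc3, Mavs, Ticam1, Tirap, Tlr2 and Nlrp1a. Mouse 2 was at 3 counts or fewer for 7 of the 9, mouse 1 for 4 and mouse 3 for 2. Over all uneven protein-coding genes these shares were 53.0%, 60.5% and 24.5% for mice 2, 1 and 3. Mouse 2 had the smallest library, where 3 counts are 0.171 CPM, against 0.132 and 0.115 CPM in mice 1 and 3. The part of depth in these counts was not tested. Naip2, Nlrc3, Ticam1 and Tirap were uneven through mouse 2 alone, and Irak1bp1 through mouse 1 alone. Without mouse 2, 4 members were uneven, and without mouse 1 or mouse 3, 6 were. Mouse 1 had the highest value of Nod1, Nlrc3 and Tirap, and mouse 2 that of Mavs. When 5 CPM was asked of the high mouse, 3 genes remained, Naip2, Irak1bp1 and Nod1. For these the low values were 0 to 3 counts, and the high values were 276, 169 and 158 counts. No share of all genes is given at 5 CPM or without a mouse, so the member counts under these settings have no background.

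**Figure D4:**
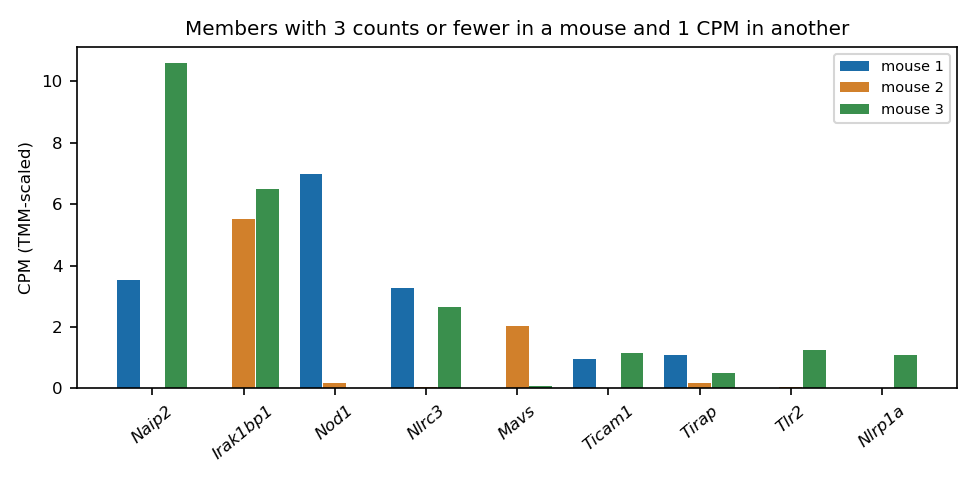
CPM in each mouse (vertical axis) of the 9 members with 3 counts or fewer in a mouse and at least 1 CPM in another, 1 bar per mouse. Naip2 is at 0 in mouse 2 and at 10.6 CPM in mouse 3, and Nod1 is at 6.97 CPM in mouse 1 and near 0 in the others.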

How the data were processed

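RNA was sequenced from ILC2s sorted from 3 mice. An ultra-low-input SMARTer kit was used, per the labels' protocols, with Illumina sequencing. The authors deposited raw read counts per Entrez gene ID, 1 column per library. Per the submitters' processing notes, CASAVA 1.8.2, STAR 2.3.0 and mm10 were used. The sources used here name neither the counting program nor its annotation. Of 27179 IDs, 25275 matched RefSeq GRCm38.p6, which gave symbols and 1-based coordinates, and 24862 had an exon length in GENCODE M21. Tmem173 was matched by synonym. Members and lists were chosen with earlier results of these data known. Every detected member is named, others by family, with the 3 genes of highest mean CPM in each further list.

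CPM used TMM in edgeR 4.0.16 (R 4.3.3); RPKM used summed exons. Gene pairs were compared as log2(RPKM + 0.5) by exact sign-flip permutation tests in scipy 1.17.1, with Benjamini-Hochberg adjustment over 8 pairs. Variability was tested with an intercept-only edgeR quasi-likelihood fit on genes passing filterByExpr (minimum count 10), by an upper-tail F test with adjustment over all 9175 genes. On simulated data with 8950 genes it recovered 25 of 100 genes raised 8-fold in 1 library and 76 of 100 raised 64-fold, with 0 false calls. Alternatives included DESeq2 1.42.0 and limma 3.58.1.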

Additional observations from a re-analysis of the deposited data

How the results depend on the processing

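No paired analysis was possible because all libraries belong to 1 group. The definition of uneven genes, its alternatives and a count without Irak1bp1 and the pseudogenes were chosen after the data were seen. Of 89 recomputed values 86 kept their direction or stayed within 1.5 times the reported count. Many of the gene-pair values among them could not have moved. Library totals and pseudocounts leave the order of a pair within a mouse unchanged. Where all mice had the same direction, leaving out a mouse could not reverse it. The 86 therefore cannot be read as a measure of robustness for the gene pairs. At a mean of 10 RPKM in place of 10 CPM, 5 members passed in place of 12. Asking 5 CPM of the high mouse left 3 uneven members in place of 9, and leaving out a mouse left 4 to 6 (4 without mouse 2). These counts of uneven members have no share of all genes beside them. Without each mouse in turn, 14 to 17 members were detected (17 without mouse 2), 47 to 49 of the other pathway genes, 10 to 12 members reached a mean of 10 CPM, and 0 members were called more variable. Pycard minus Nlrp3 was 4.48 to 6.54 over the pseudocounts. Without each mouse, Ddx58 minus Ifih1 was 1.38 to 2.34 on the log2 scale (1.38 without mouse 1). At 0.5 and 5 CPM in each mouse 14 and 12 members were detected, at 1 RPKM 11, and at a mean of 1 CPM 19. With a robust prior edgeR called 0 of all genes, with 394 at an unadjusted p under 0.05, and why was not tested. The floor of 3 counts for genes with 0 counts covers counting error only. It leaves out other sources of a 0, such as the ultra-low-input library preparation, whose part was not tested.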
